A study of Mus musculus with 12 samples.

Results

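The 6 urea cycle genes Nags, Cps1, Otc, Ass1, Asl and Arg1 were followed step by step in the livers of mice with and without glucagon. They were picked by symbol among the 24475 genes of the deposited expression table, and all 6 were found and passed the filter on low values that left 11347 genes for testing. The study asked how glucagon, the pancreatic hormone of fasting, bears on the division of labour between liver zones. Polyadenylated RNA of whole liver was sequenced in 6 wild-type (WT) libraries, numbered 1 to 6, and 6 libraries of mice lacking Gcg (Gcg KO), numbered 7 to 12. Mice of both genotypes were fed. Gcg encodes proglucagon, from which the glucagon-like peptides are also cut, so the knockout removes more than glucagon. The labels give no strain, age, sex, batch or collection time. Nothing in them ties each library to an animal of its own, so the p-values cover only the variation among these libraries, and that may be technical.

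Ammonia released by amino acid breakdown is toxic, and the liver turns it into urea in the hepatocytes around the portal vein. In the mitochondrion Nags makes N-acetylglutamate, the obligatory activator of Cps1, and Cps1 joins ammonia and bicarbonate into carbamoyl phosphate. Otc transfers this group to ornithine to give citrulline, which leaves for the cytosol. There Ass1 joins citrulline to aspartate, the donor of the second nitrogen, Asl splits the product into arginine and fumarate, and Arg1 splits arginine into urea and ornithine. Glucagon is known to raise the expression of several of these enzymes through cAMP when amino acids are burned for fuel.

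In Gcg KO livers 5 of the 6 enzymes were lower and Otc did not pass the test. Ass1 fell most, to 38.1% of its WT mean, followed by Cps1 (56.7%), Asl (59.0%), Arg1 (60.1%) and Nags (68.4%), while Otc stood at 94.8%. Of all tested genes 1.92% were lower by the same test. All 6 Gcg KO libraries lay below all 6 WT libraries for the same 5 enzymes, a pattern seen in 1.5% of all tested genes. The median log2 fold change of the 6 was -0.74, beside 0.01 over all tested genes. Levels are in RPKM, reads scaled to gene length and library depth. Comparisons between genes rest on the gene lengths and read assignment behind these values, which the sources used here do not give. The test was limma on log2(RPKM + 0.5), where a gene passed below an adjusted p of 0.05 (Benjamini-Hochberg, across the 11347 genes). In bulk liver, fewer cells of a type and less RNA per cell cannot be told apart.

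**Figure D1:**
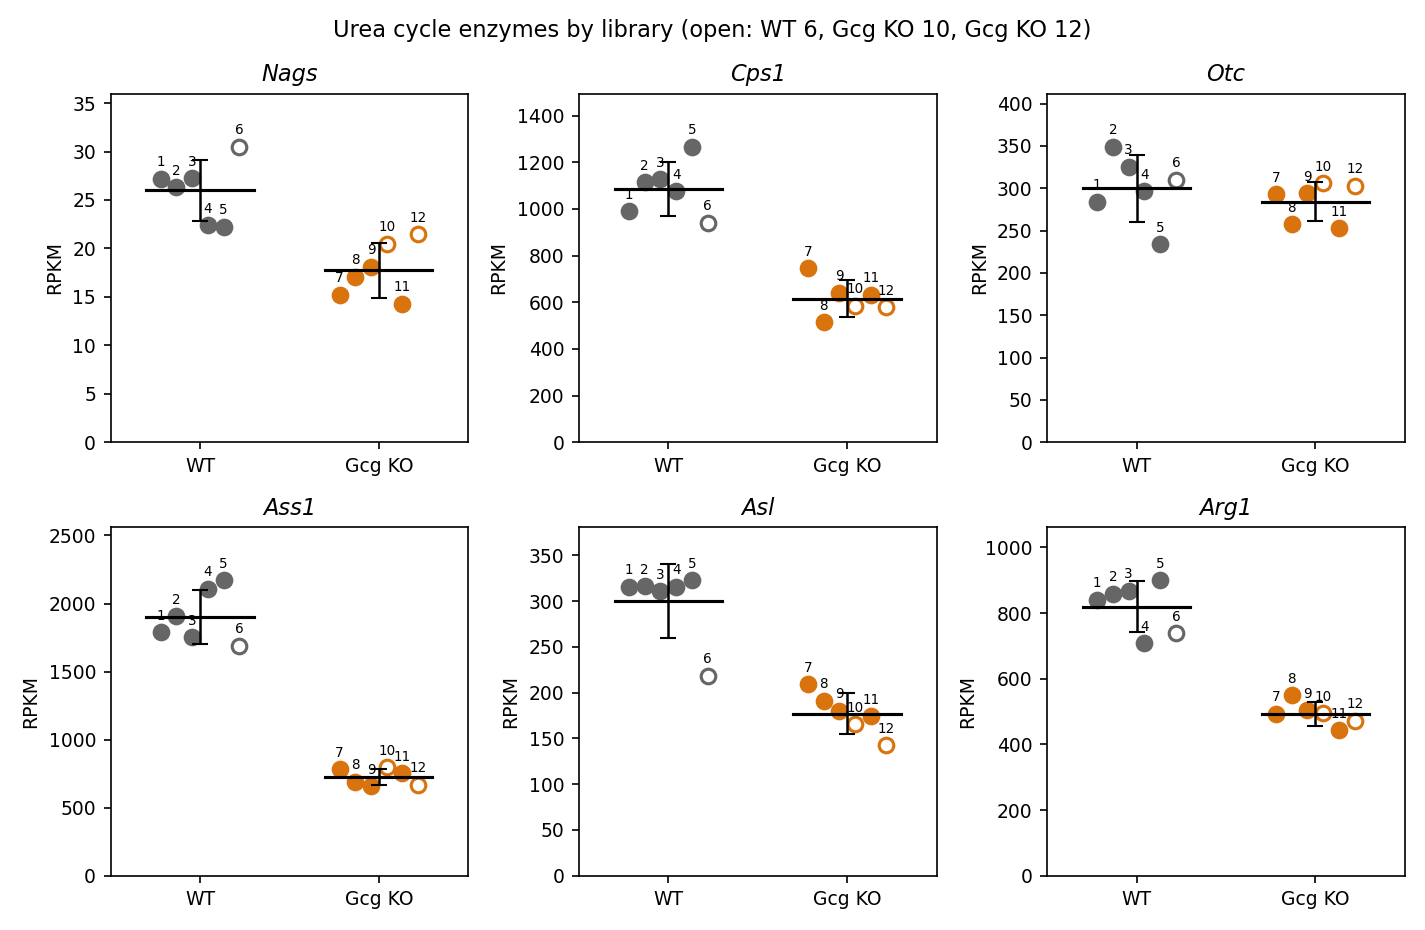
RPKM of the 6 enzymes in each library, with WT in grey, Gcg KO in orange, the library number above each point, and the group mean ± SD (n = 6) in black; open points mark 3 libraries (WT 6, Gcg KO 10, Gcg KO 12) that differed from the rest, as described with the depth. The groups are separated for every enzyme except Otc, whose Gcg KO libraries (253 to 306 RPKM) lie inside the WT range (234 to 349 RPKM).

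Stretches of upstream DNA are shown for the 3 enzymes for which a promoter window was available: Ass1, which fell most, Nags, which fell less, and Otc, which did not pass. They are from RefSeq on GRCm38.p6, on the plus strand, and run from 250 bases before the transcription start as far as the most upstream annotated start, so that no transcribed base is printed. Capitals mark the GC box GGGCGG on either strand.
Ass1, chr2:31470020-31470206: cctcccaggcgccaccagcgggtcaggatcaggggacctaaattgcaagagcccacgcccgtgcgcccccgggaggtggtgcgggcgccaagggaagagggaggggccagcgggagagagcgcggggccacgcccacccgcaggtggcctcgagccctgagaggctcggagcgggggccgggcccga
Nags, chr11:102145263-102145512: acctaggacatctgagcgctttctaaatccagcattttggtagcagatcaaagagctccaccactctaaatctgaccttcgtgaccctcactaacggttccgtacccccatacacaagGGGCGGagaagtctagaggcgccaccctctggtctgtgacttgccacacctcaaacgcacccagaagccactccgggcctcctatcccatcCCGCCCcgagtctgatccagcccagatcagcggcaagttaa
Otc, chrX:10252055-10252229: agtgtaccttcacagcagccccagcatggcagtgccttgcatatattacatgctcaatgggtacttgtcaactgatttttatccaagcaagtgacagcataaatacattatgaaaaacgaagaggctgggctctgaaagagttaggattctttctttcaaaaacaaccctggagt

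Base composition differed between these regions. Over the full 250 bases before the start, Ass1 held 75.6% G and C with 23 CpG dinucleotides, Nags 55.6% with 11, and Otc 43.6% with 1. For Ass1 and Otc these 250 bases run past the printed 187 and 175, beyond the most upstream annotated start. Their last part may thus be transcribed. Among 32851 promoter windows of that length, 86.7% held fewer CpG than Ass1, 64.4% fewer than Nags and 7.87% fewer than Otc. Whether base composition bears on the response was not tested. The window was searched on both strands for the cAMP response element TGACGTCA, its core TGACG, the C/EBP motif TTGCNNAA, the GC box GGGCGG, the NF-Y motif CCAAT and the TATA motif TATAAA. The GC box was found 2 times for Nags and 1 time for Ass1 (63 bases before the start, downstream of the printed stretch), and 32.7% of all windows held it. The other motifs were not found in the 3 windows; of all windows 1.55% held TGACGTCA, 17.8% TGACG, 9.56% TTGCNNAA, 33.8% CCAAT and 12.4% TATAAA. The promoter table gave no window for Cps1, Asl and Arg1.

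Nags, the source of the Cps1 activator (chromosome 11, 102145513 to 102149528, GRCm38), was the least abundant enzyme. Its lowest, median and highest values were 22.2, 26.8 and 30.5 RPKM in WT, and 14.3, 17.6 and 21.5 RPKM in Gcg KO. The groups came close without overlapping, and WT 6, Gcg KO 10 and Gcg KO 12 were the highest libraries of their groups. The mean fell from 25.98 ± 3.17 to 17.8 ± 2.84 RPKM (SD, n = 6 each), by 0.54 ± 0.11 (SE) on the log2 scale (limma adjusted p = 0.0127). At the estimated depth these values rest on about 524 to 802 reads in WT and 319 to 568 in Gcg KO.

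Cps1 (chromosome 1, 67122426 to 67231267), which commits ammonia to the cycle, had 941, 1095 and 1266 RPKM as lowest, median and highest WT value and 513, 608 and 745 RPKM in Gcg KO. Every Gcg KO library was below the lowest WT library, WT 6. The mean fell from 1085 ± 115 to 615 ± 78.1 RPKM, by 0.82 ± 0.09 (SE) on the log2 scale (limma adjusted p = 2.2e-04), or 1.77-fold. Both genes at the entry of the cycle, Nags and Cps1, thus passed downwards.

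Otc (chromosome X, 10252230 to 10321024) broke the sequence. It ranged from 234 to 349 RPKM in WT (median 303) and from 253 to 306 RPKM in Gcg KO (median 293). The Gcg KO values were nested within those of WT, and the lowest library of all was WT 5. The means were 299.7 ± 39.6 and 284 ± 23.2 RPKM, a log2 fold change of -0.07 ± 0.09 (SE; limma adjusted p = 0.797). The 95% confidence interval of that change ran from -0.27 to 0.13, that is from 0.83 to 1.09 times the WT level. The intervals of the 5 other enzymes all ended at -0.31 or lower, with Nags nearest.

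Ass1 (chromosome 2, 31470270 to 31520670) was the most abundant enzyme of the cycle in both genotypes and changed most. WT libraries ran from 1689.7 to 2172 RPKM (median 1849) and Gcg KO libraries from 656 to 795 RPKM (median 721). The groups lay far apart. The mean went from 1903 ± 198 to 724 ± 60.8 RPKM and was 2.62-fold lower (-1.39 ± 0.08 SE in log2; limma adjusted p = 6.1e-07). By mean level it was number 48 of all genes in WT and number 99 in Gcg KO, and by p-value it was number 4 of the comparison.

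Asl (chromosome 5, 130011258 to 130024381), the lyase that releases arginine and fumarate, had 219, 316 and 323 RPKM as lowest, median and highest WT value and 143, 177 and 209 RPKM in Gcg KO. The other 5 WT libraries lay between 310.7 and 323 RPKM, and WT 6, at 219 RPKM, came close to the Gcg KO range. In Gcg KO, too, the lowest were libraries 12 (143 RPKM) and 10 (165 RPKM). The mean fell by 0.76 ± 0.11 (SE) on the log2 scale, from 300.1 ± 40.0 to 177 ± 22.7 RPKM (limma adjusted p = 0.00132).

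Arg1 (chromosome 10, 24915207 to 24927470), which completes the cycle and also occurs in myeloid cells, ran from 708 to 900.1 RPKM in WT (median 849.6) and from 442 to 549.8 RPKM in Gcg KO (median 494). A wide gap separated the groups. The mean was 819 ± 77.1 RPKM in WT and 493 ± 35.6 in Gcg KO, 1.66-fold lower (-0.73 ± 0.08 SE in log2; limma adjusted p = 9.7e-05). The 8 Kupffer cell and macrophage markers summed to 65.7 to 118 RPKM in WT and 79.9 to 124 RPKM in Gcg KO, and 0 of 8 passed limma in either direction (0 also unadjusted).

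The order of levels changed between genotypes. In WT it was Ass1, Cps1, Arg1, then Asl and Otc, then Nags, and only Asl and Otc overlapped in their libraries' values. In Gcg KO the order was Ass1, Cps1, Arg1, Otc, Asl and Nags. There Ass1 overlapped with Cps1 (highest library 745 RPKM against a lowest Ass1 library of 656), Cps1 overlapped with Arg1, and Otc stood clear above Asl. The 6 enzymes together held 0.734% ± 0.0612 of the summed RPKM in WT and 0.383% ± 0.0236 in Gcg KO (SD, n = 6 each). Within that sum the share of Ass1 was 42.9% ± 2.33 in WT and 31.3% ± 1.84 in Gcg KO, and that of Otc was 6.81% (4.75% to 7.89%) and 12.3% (11.1% to 13.9%). The share of Cps1 overlapped between the groups, at 23.3% to 25.8% in WT and 23.1% to 29.3% in Gcg KO.

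The ratio of each enzyme to the one before it was then compared, to ask whether neighbouring steps changed by different amounts. There were 5 log2 ratios, each tested by an exact two-sided permutation test whose smallest possible p is 0.00216, with Benjamini-Hochberg adjustment over the 5. Otc to Cps1 was -1.86 ± 0.30 in WT and -1.11 ± 0.19 in Gcg KO (SD, n = 6), a rise of 0.75 (exact permutation p = 0.00216, adjusted 0.00361). Thus there were 0.275 units of Otc RPKM for each of Cps1 in WT and 0.464 in Gcg KO. Ass1 to Otc went from 2.67 ± 0.31 to 1.35 ± 0.17, a difference of -1.32 (exact permutation p = 0.00216, adjusted 0.00361), which turned a 6.37-fold excess of Ass1 over Otc into a 2.55-fold one. Asl to Ass1 went from -2.67 ± 0.18 to -2.04 ± 0.19, a difference of 0.63 (exact permutation p = 0.00216, adjusted 0.00361). In these 3 ratios the groups did not overlap: the change of Otc differed from that of Cps1, and that of Ass1 was larger than those of Otc and Asl. The step from Nags to Cps1 differed by -0.27 (exact permutation p = 0.193, adjusted 0.241) and that from Asl to Arg1 by 0.03 (exact permutation p = 0.797, adjusted 0.797), and in both the groups overlapped.

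**Figure D2:**
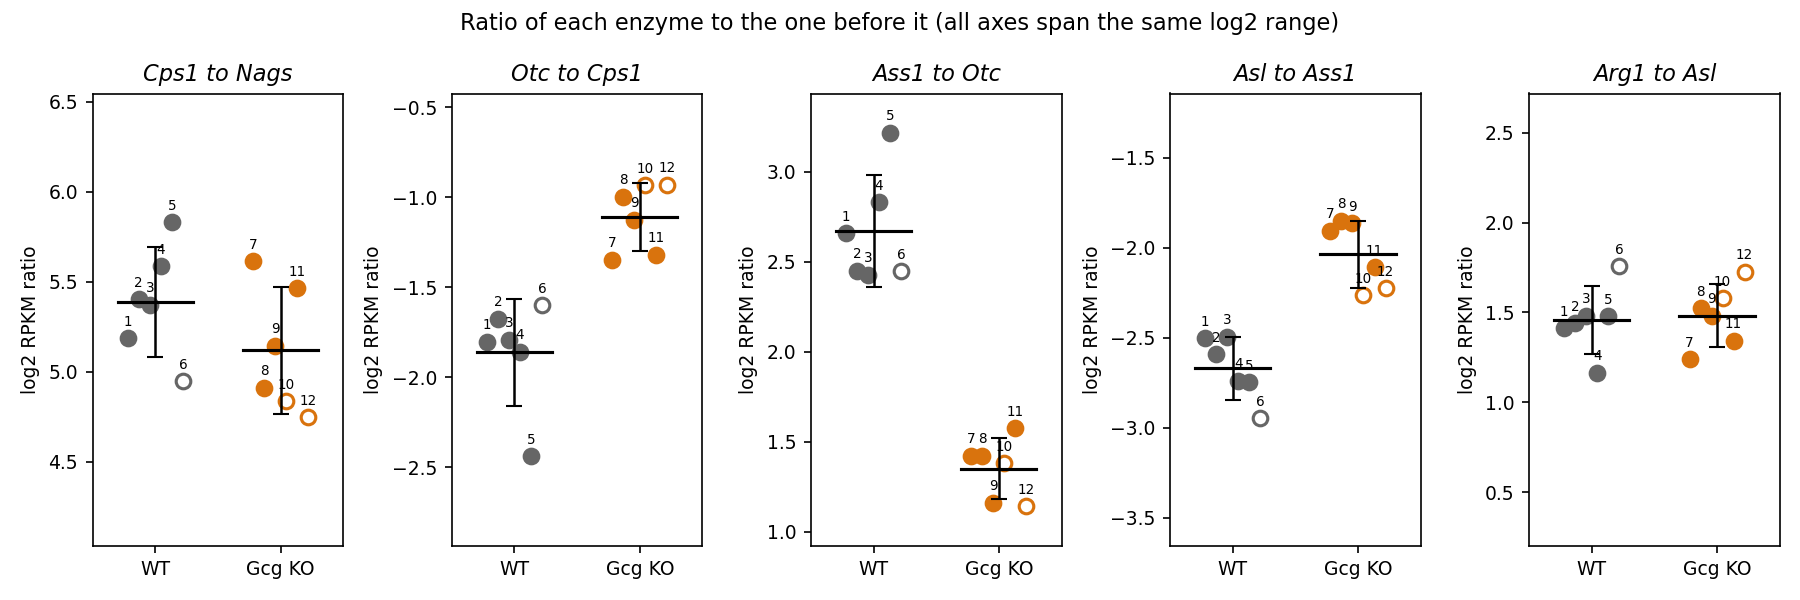
Log2 ratio of the RPKM of each enzyme to that of the enzyme before it, by library, with group mean ± SD (n = 6) in black; symbols as in the plot of levels by library. The Gcg KO libraries lie above all WT libraries for Otc to Cps1 and Asl to Ass1 and below them for Ass1 to Otc, and the groups overlap for Cps1 to Nags and Arg1 to Asl.

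Ass1 has a processed pseudogene copy, Gm5424 (chromosome 10, 62071022 to 62072571), which the table lists as a gene of its own. In the GENCODE M21 transcripts the 1240 bases of the copy aligned to the Ass1 transcript of 1696 bases with 6 mismatches and no gap, an identity of 99.5%. The stretch of 60 coding bases with the most differences is shown to make plain how little separates them. It covers bases 370 to 429 of the Ass1 coding sequence, counted from the A of the start codon, and capitals mark the differing bases, T399C and T429C (Ass1 base first).
Ass1: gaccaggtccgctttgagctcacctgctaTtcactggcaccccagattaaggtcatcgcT
Gm5424: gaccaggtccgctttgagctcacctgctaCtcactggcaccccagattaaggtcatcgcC

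The sources used here give neither the read length nor the handling of reads that match both places. Of all stretches of 50 bases in the Ass1 transcript 55.3% also occur in Gm5424, and of those of 100 bases 38.9%. Gm5424 was listed at 294, 317 and 481 RPKM (lowest, median, highest) in WT and at 75.5, 101 and 171 RPKM in Gcg KO, a log2 fold change of -1.66 ± 0.19 (SE; limma adjusted p = 2.2e-04). Its level was 15.9% to 22.1% of that of Ass1 in WT. In Gcg KO it was 11.5% to 13.7% in libraries 7, 8, 9 and 11, but 21.5% in library 10 and 21.3% in library 12. With the reads of both places added, weighted by their lengths, the log2 fold change of Ass1 was -1.42 (limma adjusted p = 7.4e-07), close to the -1.39 of Ass1 alone.

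**Figure D3:**
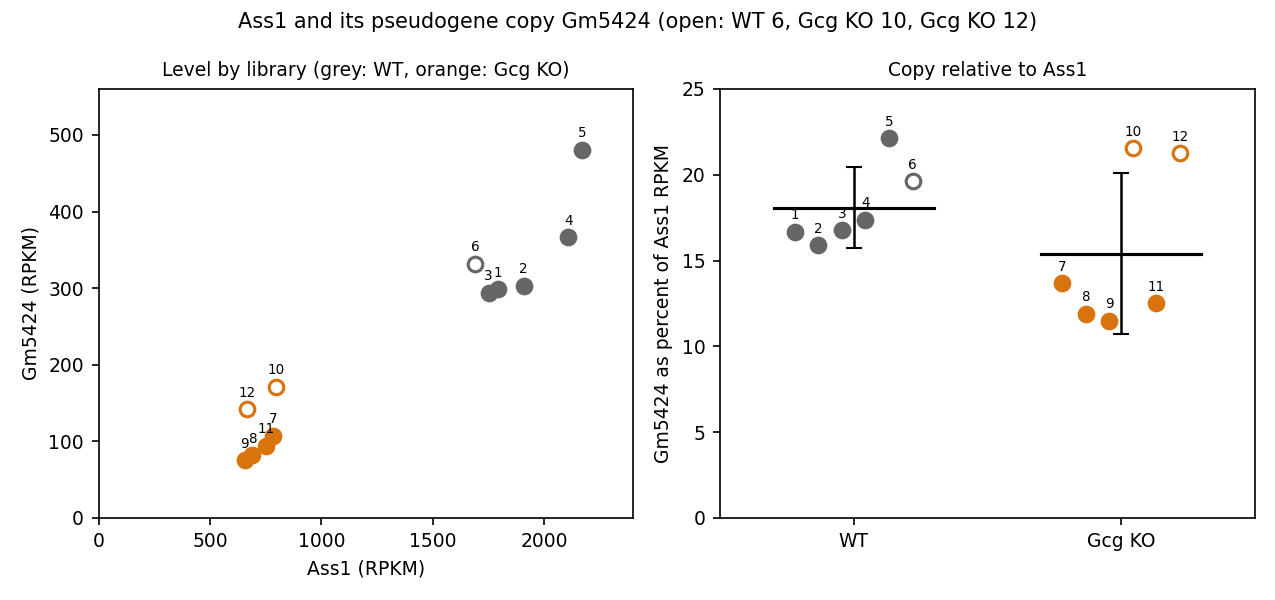
Left, RPKM of Ass1 and Gm5424 in each library (grey WT, orange Gcg KO, open points WT 6, Gcg KO 10 and Gcg KO 12); right, Gm5424 as a percentage of Ass1 with group mean ± SD (n = 6). Both fall in Gcg KO, and libraries 10 and 12 carry more of the copy relative to Ass1 (21.5% and 21.3%) than the other 4 Gcg KO libraries (11.5% to 13.7%).

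The cycle depends on carriers across the inner mitochondrial membrane and on bicarbonate. Of 6 tested genes of this kind 2 fell and 0 rose, with a median log2 fold change of -0.17. Counts of genes that fell or rose, here and below, are of genes that passed the threshold. Slc25a15, which exchanges ornithine for citrulline and so links Arg1 with Otc, ran from 94.6 to 164 RPKM in WT and from 57.0 to 78.0 RPKM in Gcg KO (log2 fold change -0.86 ± 0.11 SE; limma adjusted p = 6.6e-04). Slc25a22, which carries glutamate into the mitochondrion, dropped from 80.4 ± 14.0 to 38.5 ± 6.85 RPKM (limma adjusted p = 4.6e-04). Slc25a13 (citrin), which exports the aspartate used by Ass1, had 62.8 ± 6.32 RPKM in WT against 57.4 ± 6.22 in Gcg KO (limma adjusted p = 0.529). Car5a, the mitochondrial carbonic anhydrase that supplies bicarbonate to Cps1, averaged 27.0 (22.3 to 32.8) and 23.2 (19.0 to 28.1) RPKM (limma adjusted p = 0.399).

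Among 17 genes listed around the supply or use of ammonia or aspartate, 6 fell and 0 rose (median log2 fold change -0.14). The 6 were Gls2, Got1, Sds, Asns, Hal and Gpt. Gls2, the liver glutaminase that feeds ammonia to Cps1, and Got1, the cytosolic aspartate aminotransferase, fell by 2.31 ± 0.13 and 3.10 ± 0.28 (SE) on the log2 scale, beyond the -1.39 of Ass1; the difference from Ass1 was not tested. Sds, the serine dehydratase, fell by 2.13 ± 0.23, and Gpt, alanine aminotransferase, by 0.50 ± 0.07. Asns, asparagine synthetase, which uses aspartate and does not supply it, was low throughout (3.61 ± 2.66 RPKM in WT, 0.516 ± 0.346 in Gcg KO). Hal, histidine ammonia-lyase, had overlapping groups and lost its call without WT 3 (log2 fold change -0.55, limma adjusted p = 0.0537) or Gcg KO 9 (-0.56, limma adjusted p = 0.0505). Glud1, the glutamate dehydrogenase that frees ammonia in the mitochondrion, differed little in mean, 352 ± 21.7 against 349 ± 32.8 RPKM (limma adjusted p = 0.957). Got2, the mitochondrial aspartate aminotransferase, had 203 ± 12.1 and 208 ± 9.13 RPKM (limma adjusted p = 0.836).

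Fumarate released by Asl is returned to oxaloacetate by fumarase and malate dehydrogenase. Fh1, fumarase, went from 101 ± 10.6 down to 59.0 ± 3.94 RPKM (-0.77 ± 0.07 SE in log2; limma adjusted p = 5.7e-05), a change near that of Asl (-0.76) and Arg1 (-0.73), and its groups did not overlap. Of the malate dehydrogenases, Mdh2 passed downwards (-0.23 ± 0.06 SE, limma adjusted p = 0.0415), a call lost without the 3 libraries that stood apart (limma adjusted p = 0.0737) and kept under 10 of 23 alternatives. Mdh1 did not pass (limma adjusted p = 0.0934).

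Arginine and ornithine also leave the cycle by side routes, of whose 11 tested genes 3 fell and 0 rose (median log2 fold change -0.02). Oat, which turns ornithine towards glutamate in the cells around the central vein, fell by 2.37 ± 0.12 (SE) on the log2 scale, with 414 to 515 RPKM in WT and 71.8 to 128 in Gcg KO. Aldh4a1, which completes that route to glutamate, fell by 0.43 ± 0.08. Prodh, proline dehydrogenase, passed narrowly (-0.33 ± 0.09 SE, limma adjusted p = 0.0483) and lost its call without the 3 libraries (limma adjusted p = 0.106), keeping it under 8 of 23 alternatives. The other arginase, Arg2, was at most 0.340 RPKM in every library and was not tested, so nearly all arginase message in these livers was that of Arg1. Of 6 tested transporters of the cell membrane, Slc7a2, the carrier of cationic amino acids such as arginine, fell by 1.47 ± 0.21 (SE), and Aqp8, an aquaporin, rose by 1.24 ± 0.18, from 48.3 ± 10.7 to 116 ± 35.3 RPKM. Aqp9, a liver channel for glycerol and urea, had 138 ± 12.6 and 148 ± 14.5 RPKM (limma adjusted p = 0.616).

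Over these lists and the ones that follow, 74 genes other than the cycle enzymes were tested, of which 14 fell and 1 rose. Of all tested genes 1.92% were lower and 1.95% higher.

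**Figure D4:**
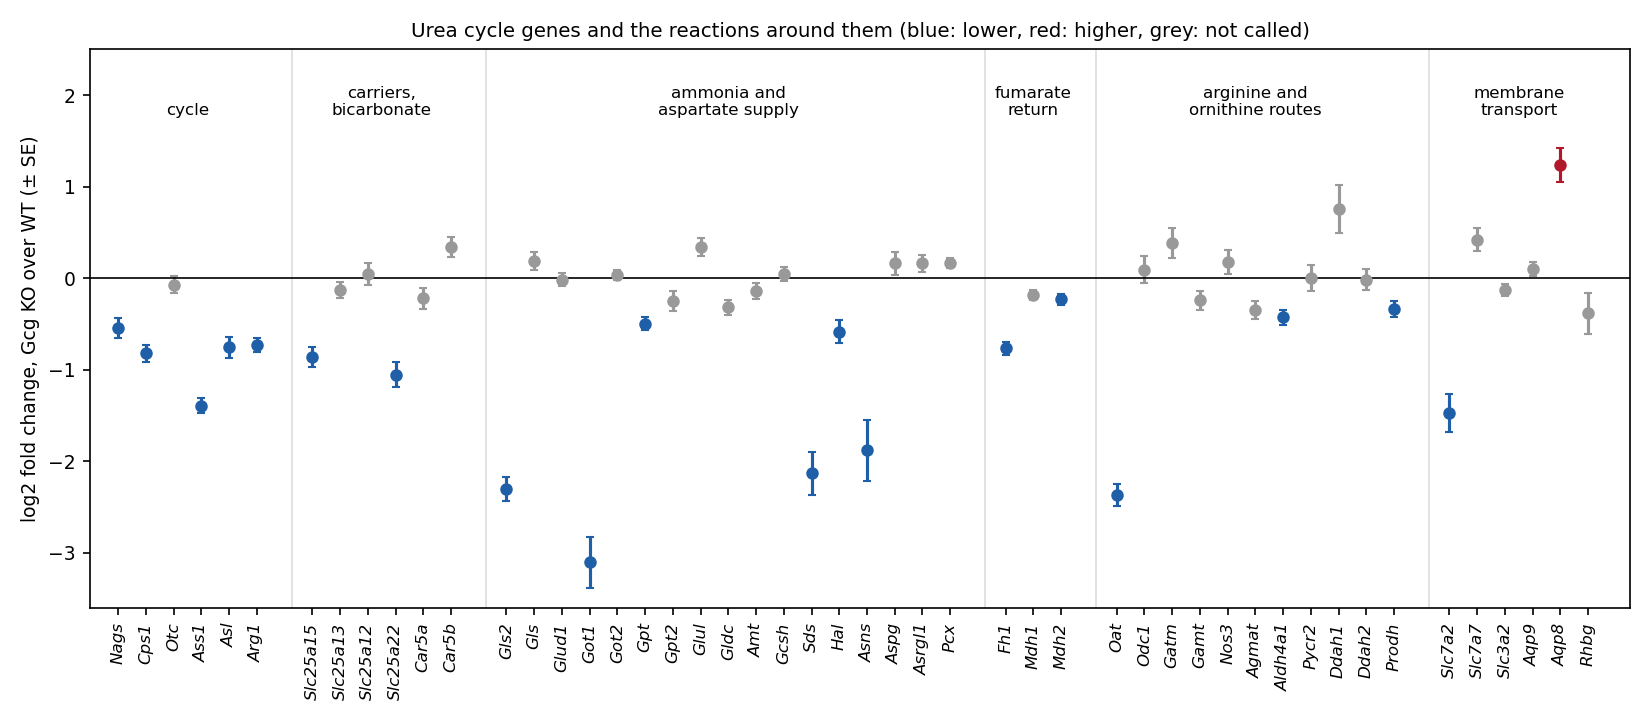
Log2 fold change (Gcg KO over WT) ± SE for every tested gene of the cycle and of the reactions around it, grouped by role; blue points passed the threshold downwards, red upwards and grey not at all. Got1 (-3.10), Oat (-2.37), Gls2 (-2.31), Sds (-2.13), Asns (-1.88) and Slc7a2 (-1.47) lie below every cycle enzyme. Aqp8 (1.24) is the only gene shown that passed the threshold upwards.

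Lists of genes for pyrimidine synthesis, for proteins that modify cycle enzymes and for regulators gave no call. Of all tested genes 1.92% were lower and 1.95% higher, so 0 calls in lists this short is near those shares. The pyrimidine pathway makes carbamoyl phosphate in the cytosol with Cad, which averaged 2.28 ± 0.567 RPKM in WT and 2.22 ± 0.276 in Gcg KO (limma adjusted p = 0.989); 0 of its 3 genes passed limma (0 unadjusted). Of 4 genes for proteins that modify cycle enzymes, the deacylases Sirt3 and Sirt5 among them, 0 passed limma (0 unadjusted). Of 24 genes for transcriptional regulators and receptors reported to act on urea cycle genes, 0 passed limma, and 4 had an unadjusted p below 0.05 (Crem, Ppargc1a, Foxo1 and Klf15, all lower in mean). Over all 11347 tested genes, 1783 had an unadjusted limma p below 0.05, a share near that of these 24. Hnf4a, the hepatocyte nuclear receptor, had 155 ± 8.94 and 159 ± 25.5 RPKM (limma adjusted p = 0.965), Cebpa had 94.5 ± 15.7 and 98.7 ± 17.3 RPKM (limma adjusted p = 0.901), and Nr3c1, the glucocorticoid receptor, had 13.8 ± 1.28 and 14.3 ± 1.61 RPKM (limma adjusted p = 0.871). Ppargc1a, a cAMP-induced coactivator, averaged 2.74 ± 1.42 RPKM in WT and 1.07 ± 0.611 in Gcg KO (limma adjusted p = 0.0638) and passed without WT 6 (limma adjusted p = 0.0279) or without Gcg KO 7 (limma adjusted p = 0.0244). Gcgr, the glucagon receptor, averaged 92.1 ± 3.16 and 96.2 ± 4.53 RPKM (limma adjusted p = 0.618). Gcg itself was listed at 0 in all 12 libraries, so it checked no label in this tissue.

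Depth, read from the smallest steps between low values, was about 11600000 to 15000000 reads in WT and 10300000 to 13700000 in Gcg KO. Hepatocyte markers, Alb the most abundant, summed to 46486 to 59782 RPKM in WT and 44011 to 57584 RPKM in Gcg KO, and 0 of the 7 tested passed limma (1 unadjusted). Small intestine and kidney also express enzymes of the cycle. Of 7 enterocyte markers Alpi and Sis were at 0 in every library and only Apob and Fabp2 passed the filter, and the 6 kidney tubule markers summed to at most 0.227 RPKM. WT 6, Gcg KO 10 and Gcg KO 12 stood apart: their 8 neutrophil markers summed to 1.94 to 2.75 RPKM against 17.3 to 65.9 RPKM in the other 9, and the part of this in the results was not tested. Without them all of Nags (-0.62), Cps1 (-0.82), Ass1 (-1.43), Asl (-0.75) and Arg1 (-0.75) still passed limma downwards, where 1.52% of all genes did, and the log2 fold change of Otc was -0.11. Of 8 periportal markers 4 fell (Hal, Gls2, Sds and Aldh1b1), while Cyp2f2, the most abundant, Pck1, Hsd17b13 and Cdh1 were not called. Hal, Gls2 and Sds were already counted among the genes around the supply or use of ammonia or aspartate. The sum of the 8 overlapped between the groups, from 2071 to 3141 RPKM in WT and from 1423 to 2706 in Gcg KO. The low ends were those of the 3 libraries that stood apart (1423 to 2071 RPKM), and the other 9 lay between 2305 and 3141 RPKM; the part of these markers in the result was not tested. Of 8 pericentral markers 3 fell (Cyp1a2, Oat and Slc1a2), while Glul, Cyp2e1, Rhbg, Lgr5 and Axin2 were not called. Glul was higher in mean (log2 fold change 0.35, limma adjusted p = 0.0722) and Rhbg lower (-0.38, limma adjusted p = 0.457). Oat was already counted among the side routes. The sum of the 8 ran from 3872 to 5016 RPKM in WT and from 3806 to 5133 in Gcg KO. The 6 bile duct markers, Spp1 the most abundant, summed to 14.5 to 27.8 RPKM in WT and 35.2 to 249.1 RPKM in Gcg KO without overlap. Spp1 was called higher, Krt19 and Sox9 were tested and not called, and Krt7, Epcam and Cftr were below the filter. Of the 3 tested, 2 had an unadjusted limma p below 0.05. Lyve1 of 8 endothelial markers was also called higher, and Hbb-bs of 5 red cell markers lower. Of 7 pancreatic acinar markers only Cela1 passed the filter, and it was called lower, while Cpa1, Prss2 and Pnlip were at 0 in every library. Stellate, T and NK, and B cell markers gave 0 calls by limma (1, 0 and 0 unadjusted). Only 1 T and NK marker and 1 B cell marker passed the filter, so those 2 results say little about these cells. The part of these markers in the results was not tested.

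Within a genotype some enzymes varied together from library to library and others in opposite directions. With each group's mean subtracted, Pearson's r of log2(RPKM + 0.5) over the 12 libraries was 0.59 for Nags with Otc, 0.56 for Cps1 with Ass1, 0.55 for Cps1 with Asl and 0.49 for Ass1 with Asl. It was -0.70 for Nags with Asl, -0.63 for Nags with Ass1 and -0.57 for Nags with Cps1. All these values come from the same libraries, which differ in depth and include the 3 that stood apart, and they are a description. Nags was highest in WT 6 and in Gcg KO 12 and 10, the same libraries in which Asl was lowest in its group. Otc was lowest in WT 5, where Cps1, Ass1, Asl and Arg1 were all at their highest. To find genes whose level followed each enzyme, Pearson correlations of log2(RPKM + 0.5) were computed over the 12 libraries after each group's mean was subtracted, among 6005 other genes of at least 5 RPKM. The highest were Arhgef1 for Nags (r = 0.95), Sult1d1 for Cps1 (r = 0.89), Sbds for Otc (r = 0.97), Reps1 for Ass1 (r = 0.91), Il6ra for Asl (r = 0.95) and Fam214a for Arg1 (r = 0.88). The next were Tmem126b and Cnot8 for Nags, Crp and Mat1a for Cps1, Gatad1 for Otc, Col18a1 and Sorbs3 for Ass1, St3gal5 and Herpud1 for Asl, and Cxadr and Rbm39 for Arg1, and no gene served 2 enzymes. These are the top values of a large search over few libraries, which differ in depth and include the 3 that stood apart, and are given as a description. Without subtraction of the group means, Mat1a, which makes S-adenosylmethionine and fell in Gcg KO, reached r = 0.97 with Cps1 and was number 3 of the 6005.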

How the data were processed

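Liver RNA of 6 WT and 6 Gcg KO samples was analysed from 1 deposited table, with a column for each sample and 0 columns left unmatched. The authors deposited RPKM values; the unit was taken from the table's name and its values. CASAVA 1.8.2, FastQC and the build GRCm38 are named in the submitters' processing notes, and the sources used here give no aligner, counter or annotation. Libraries were strand-specific, per the labels' protocols. The filter kept genes whose mean RPKM reached 0.5. They were tested on log2(RPKM + 0.5), which understates changes of low genes, with limma 3.58.1 under R 4.3.3, its variance trended on the mean, without covariates. Coordinates are RefSeq, GRCm38, matched by Entrez identifier (99.6% matched). Depth was estimated from genes with 1 transcript, as the commonest lowest step of RPKM times length; the values were not recovered as whole reads, so no count test was run.

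The members, gene lists and named genes were chosen with earlier results of these data known. Named were the members, other pathway genes past the threshold, a fixed panel, and the 3 genes most like each member (1 of them is not reported here); other genes named were chosen after their values were seen. On simulated data the test recovered 53 of 67 genes changed 1.5-fold (79.1%) and 63 of 67 changed 2-fold (94%) among 11356 tested, with 5 false calls among 186. Each gene was drawn independently there, and only genes of mean RPKM of at least 1 were changed. Variation shared between genes, such as that of the 3 libraries that stood apart, was left out, so these rates may be too favourable. Alternatives changed the pseudocount, filter, scaling, variance model and libraries used.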

Additional observations from a re-analysis of the deposited data

Results flagged for a closer look

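Among 24 sets of 6 values examined (6 enzymes, Gm5424 and 5 step ratios in each genotype), 2 held a library far from its group, where chance gives about 1 in 20. Asl in WT 6 was 218.8 RPKM, and the nearest other WT library had 310.7 RPKM. The log2 ratio of Otc to Cps1 in WT 5 was -2.44, and the nearest WT library had -1.86. In WT 5 Otc was the lowest and Cps1 the highest of the 6 WT libraries. Neither library decided a call: without WT 6 the log2 fold change of Asl was -0.84, and without WT 5 the ratio differed by 0.64.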

How the results depend on the processing

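No paired analysis was possible because the groups share no replicate number. The count of 5 enzymes lower in Gcg KO held under all 23 alternatives, and the 3 ratios that passed did so under all 15 of theirs. Adjusted p reached at most 0.0354 for Nags and 0.0087 for Asl. Over all genes 439 passed, 277 to 471 when 1 library was left out (277 without WT 3), 593 with library weights and 299 without the 3 libraries chosen after the data were seen. The median log2 fold change of all genes, 0.014, was -0.0076 with upper-quartile scaling and -0.014 without the 3 libraries. Signs turned for values that did not pass: with quantile normalization Otc had 0.010 and Glud1 0.064; without the 3 libraries Glud1 had 0.042, Cad 0.059 and Nr3c1 -0.033; with library weights Cad had 0.029; Hnf4a had -0.00088 with median-of-ratios and -0.0066 with upper-quartile scaling. With 1 library left out, values ran from -0.047 to 0.016 for Glud1, -0.11 to 0.077 for Cad, -0.045 to 0.079 for Hnf4a, -0.0052 to 0.15 for Cebpa and -0.032 to 0.087 for the ratio of Arg1 to Asl. Without subtraction of group means Col18a1 had r = -0.45 with Ass1 and Cxadr r = -0.073 with Arg1. The cause of these changes was not tested. The other 74 pathway genes gave 12 to 19 calls beside 15. Depth limits genes of a few RPKM or less, such as Asns, Arg2 and Cad.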
